A study of Mus musculus with 4 samples.

Results

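The actin genes of the mouse mast cell line MC/9, serum response factor (SRF) and 3 genes for actin-binding proteins were followed across berberine and anti-DNP IgE treatment. The 10 genes are Srf, Actb, Actg1, Acta1, Acta2, Actc1, Actg2, Cfl1, Pfn1 and Tpm1, out of 18193 genes with a probe set on the array. They were selected on measured values, because beta-actin signals read lower on the arrays of berberine-treated cells than on the others, and all 21 probe sets annotated to them were kept out of 45101. A probe set is a group of short oligonucleotides that reads one transcript. These 21 include the 3 control probe sets that read the 5', middle and 3' stretches of the beta-actin transcript. The berberine comparisons of these genes are therefore descriptions, and they give no independent evidence that berberine lowers actin signals.

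MC/9 is a mast cell line grown out of liver, taken at 13 days, from a cross labelled (B6 X A/J)F1, and it was kept in DMEM with rat T-STIM at 37 °C. The groups were BER (berberine, 10 microM), BER+DNP (berberine, 10 microM, and anti-DNP IgE, 500 microg/ml), DNP (anti-DNP IgE, 500 microg/ml) and control (neither agent). For BER, BER+DNP and DNP the labels give 24 h of treatment and then 6 h of culture. For control no times are given, and no antigen step after the IgE is named. Each group was 1 Affymetrix mouse expression array, which gives no replicate error and no p-value, and the number of arrays limits the precision.

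Actin monomers assemble into filaments that shape the cell cortex, and in mast cells this cortex is remodelled around secretory granules. Actin is also a signal to its own genes. Free monomers hold the coactivators of the MRTF family in the cytoplasm, and when monomers are used up these coactivators join SRF on DNA and raise transcription of actin and other cytoskeletal genes. SRF binds the CArG box, an element with a pair of C, a stretch of A and T, and a pair of G.

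Because the CArG box links SRF to its target genes, the promoter windows of the members were read from the RefSeq promoter table of assembly GRCm38.p6, which held 8 of the 10 members (all but Actb and Actg2). The 250 bases before the annotated transcription start were searched. For Acta2, Pfn1, Srf and Tpm1 that start lies inside the annotated gene span. Their windows lie wholly or, for Acta2, partly within the span. Only exact matches counted: CC, then A or T alone, then GG, over 10 bases. The reverse complement of a CArG box is again a CArG box, so 1 search covered both strands. Of the 8 windows, 4 held a box, those of Acta1, Actc1, Actg1 and Srf, and the other 4 (Acta2, Cfl1, Pfn1 and Tpm1) held no exact match. Stretches that differ from the pattern by 1 base were not counted, and no full search for them was made. The Acta2 window holds ccctatatgg and ccttgtttgg, and the Tpm1 window holds ccatatatag and ccaaaaaagt. Windows with a box can hold such stretches too, as ccatatacgg in Acta1. Of 32851 windows of this length in the table, 482 held at least 1 box, which is 1.47%. The 4 windows with a box are shown 5′ to 3′ on the gene's strand, with the box in capitals, to set the element beside the signals that follow. They lie on the minus strand at chr8:123894776-123895025 (Acta1), chr2:114052876-114053125 (Actc1), chr11:120348496-120348745 (Actg1) and chr17:46556163-46556412 (Srf).
Acta1: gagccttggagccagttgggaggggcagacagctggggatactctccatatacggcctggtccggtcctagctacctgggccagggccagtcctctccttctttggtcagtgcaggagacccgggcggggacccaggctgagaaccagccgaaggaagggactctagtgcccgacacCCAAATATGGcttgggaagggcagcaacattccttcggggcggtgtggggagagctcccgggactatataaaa
Actc1: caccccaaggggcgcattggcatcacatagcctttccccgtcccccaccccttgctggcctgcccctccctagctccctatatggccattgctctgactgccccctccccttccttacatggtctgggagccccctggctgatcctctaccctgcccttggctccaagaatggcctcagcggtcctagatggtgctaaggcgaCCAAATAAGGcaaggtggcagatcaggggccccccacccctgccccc
Actg1: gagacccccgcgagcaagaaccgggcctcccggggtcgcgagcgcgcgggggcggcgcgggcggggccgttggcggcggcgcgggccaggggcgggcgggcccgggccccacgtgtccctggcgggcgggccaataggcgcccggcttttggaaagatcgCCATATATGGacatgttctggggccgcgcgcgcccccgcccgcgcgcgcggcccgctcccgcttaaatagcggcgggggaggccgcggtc
Srf: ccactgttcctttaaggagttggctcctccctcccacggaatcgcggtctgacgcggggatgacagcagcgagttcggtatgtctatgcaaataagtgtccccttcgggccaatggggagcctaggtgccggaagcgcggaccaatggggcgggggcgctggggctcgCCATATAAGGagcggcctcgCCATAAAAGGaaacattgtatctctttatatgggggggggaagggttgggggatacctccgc

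The box lay at -73 to -64 from the start in Acta1, at -47 to -38 in Actc1 and at -90 to -81 in Actg1. Srf held 2 boxes, at -82 to -73 and at -62 to -53, and 6 of the 32851 windows (0.0183%) held at least 2. A match describes the letters of the window and is not evidence that SRF was bound there, and a window with no match says nothing about SRF. The map of box positions shows the 8 windows to scale.

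**Figure D1:**
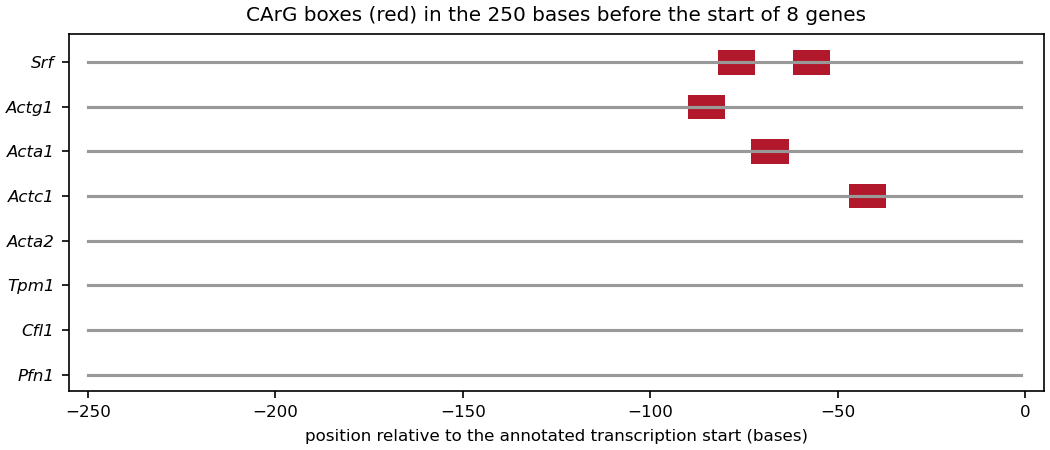
Positions of CArG boxes in the 250 bases before the annotated transcription start of the members in the promoter table; the x axis is the position relative to the start in bases. Acta1, Actc1 and Actg1 hold 1 box each and Srf holds 2, all within 90 bases of the start. The windows of Acta2, Cfl1, Pfn1 and Tpm1 hold no exact match.

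All signals are log2 values as deposited, and probe sets of different genes are not compared as levels because each has its own response. A difference is the log2 signal of the first-named array minus that of the second. A probe set was called lower or higher at a 1.5-fold difference, which is a threshold of size and not a test. A probe set was taken as dim where its mean over the 4 arrays lay under 3.138, the median of the 45037 probe sets that are not controls, and as bright where the mean was 8 or more. Of the 21 member probe sets, 19 passed the first limit and 7 were bright. The medians of the 4 arrays lay between 3.13 and 3.15, and the arrays correlated with one another at 0.988 to 0.991. In RNA from whole cultures, fewer cells of a type and less RNA per cell cannot be told apart.

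SRF itself, the transcription factor that binds the box, read nearly the same on all arrays. Its probe set 1418256_at had a log2 signal of 5.11 in BER against 4.99 in control, and 5.16 in BER+DNP against 5.08 in DNP. The differences were 0.11 and 0.08. The second Srf probe set, 1418255_s_at, had 4.51 in BER and 4.51 in control, and 4.66 in BER+DNP against 4.61 in DNP. Neither probe set was lower in a berberine array than in its partner, both berberine arrays of 1418256_at lay above both others, and the range over the 4 arrays was 0.16 for the first and 0.15 for the second.

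Beta-actin, the main cytoplasmic actin of non-muscle cells and the gene behind the selection, was read by 5 probe sets. The 5' control probe set had log2 signals of 8.85 in BER against 9.42 in control, and 9.04 in BER+DNP against 9.62 in DNP. Both berberine arrays lay under both arrays without berberine, with differences of -0.57 (1.49-fold) in the first pair and -0.59, just past 1.5-fold, in the second. The middle control probe set had 9.05 in BER against 9.59 in control, and 9.23 in BER+DNP against 9.73 in DNP.

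The 3' control probe set, the brightest of the 5, had 11.63 in BER against 11.94 in control, and 11.73 in BER+DNP against 11.95 in DNP. Its differences, -0.31 and -0.22, were the smallest of the 3 control stretches, and its 4 arrays were split by berberine without overlap, as for the other 2. Probe set 1436722_a_at, designed on Actb outside the control series, had 9.91 in BER against 10.37 in control, and 10.19 in BER+DNP against 10.61 in DNP. It followed the same order, with differences of -0.46 (1.38-fold) and -0.43 (1.34-fold).

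The fifth, 1419734_at, gave the smallest change for Actb, with 7.07 in BER against 7.33 in control and 7.38 in BER+DNP against 7.51 in DNP. Its berberine and berberine-free arrays overlapped, since BER+DNP lay above control. One transcript was thus read with differences of -0.26 to -0.57 for BER against control and of -0.12 to -0.59 for BER+DNP against DNP, depending on the probe set.

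The gap between the 5' and 3' beta-actin control signals, a measure that falls when RNA is broken or copied over a shorter stretch, moved with berberine. It was -2.78 in BER against -2.52 in control, and -2.69 in BER+DNP against -2.33 in DNP, so the 5' end stood lower relative to the 3' end in the berberine arrays, with differences in the gap of -0.26 and -0.37. After quantile normalization the second was -0.15. The same gap for Gapdh, a glycolytic enzyme used for the same check, was -1.03 in BER against -1.11 in control, and -1.06 in BER+DNP against -0.96 in DNP. The Gapdh gaps overlapped between arrays with and without berberine.

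For the transferrin receptor controls the gap was -2.35 in BER against -2.27 in control, and -2.49 in BER+DNP against -2.35 in DNP. For pyruvate carboxylase it was -0.20 in BER against -0.19 in control, and -0.22 in BER+DNP against -0.02 in DNP. Both gaps moved by less than that of beta-actin in each pair, and in the same direction. The 5' probe set of the transferrin receptor was dim on all 4 arrays.

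Among the bacterial poly-A transcripts added to the RNA as controls, which have 8 such pairs of probe sets, the gap moved both ways: its difference ran from -0.41 to 0.56 for BER against control, with 4 of 8 below 0, and from -0.37 to 0.23 for BER+DNP against DNP, with 5 of 8 below 0. One of these, the older phe pair, shifted much as beta-actin did, at -2.17 in BER against -1.79 in control and -2.18 in BER+DNP against -1.81 in DNP. The 18S ribosomal RNA gap was -0.25 in BER against 0.16 in control and -0.84 in BER+DNP against -1.22 in DNP. The part of the 5' to 3' gap in the beta-actin differences was not tested, and the labels give RNA integrity only as a number above 9.5.

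**Figure D2:**
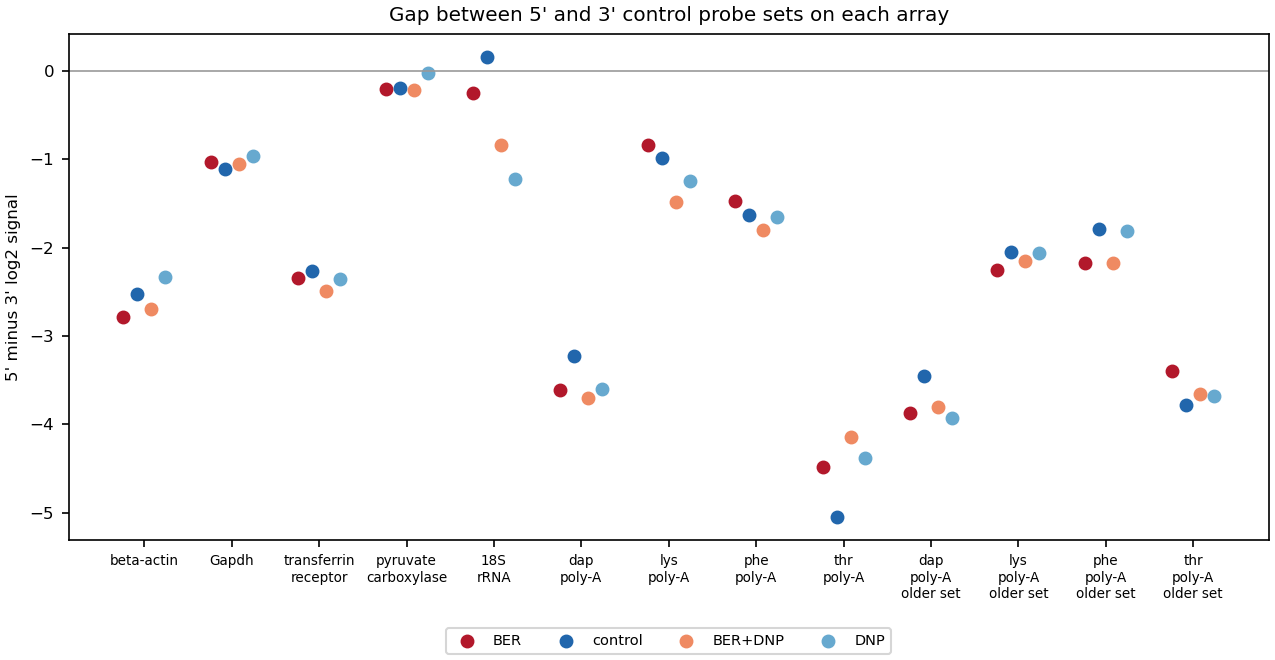
Log2 signal of the 5' control probe set minus that of the 3' control probe set for each of 13 pairs of control probe sets on the BER, control, BER+DNP and DNP arrays. The beta-actin gap lies at -2.78 and -2.69 on the berberine arrays, under -2.52 and -2.33 on the control and DNP arrays, and the Gapdh gaps of arrays with and without berberine overlap.

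The added poly-A transcripts also read lower in BER. Over their 24 probe sets the median difference was -0.48 for BER against control, with 22 below 0 and 5 lower by 1.5-fold, and -0.14 for BER+DNP against DNP, with 18 below 0. The added hybridisation controls, 18 probe sets, had medians of 0.03 and 0.10 for the same pairs, and the 3 Gapdh control probe sets had medians of 0.05 and -0.01. In BER against control the beta-actin control probe sets thus moved in the same direction as added RNA of no cellular origin, with a median of -0.54. In BER+DNP against DNP they had a median of -0.51. What the shift of the added RNA contributes to the actin values was not tested.

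Gamma-actin (Actg1), the other cytoplasmic actin, was read by 1 probe set, whose suffix _s_at marks probes that may be shared among related transcripts. It had log2 signals of 5.17 in BER against 5.23 in control, and 5.21 in BER+DNP against 5.45 in DNP. Both berberine arrays were under the other two, with differences of -0.06 and -0.24, and BER+DNP and control were almost level. Its probe set, like those of Srf, differed by less than the 5' and middle beta-actin controls in each pair.

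Among the muscle actins, Acta1, the actin of skeletal muscle, followed beta-actin most closely. Its probe set 1427735_a_at had 7.51 in BER against 8.05 in control, and 7.65 in BER+DNP against 8.15 in DNP. The differences were -0.54 and -0.50, both just short of 1.5-fold, and the berberine arrays did not overlap with the others. Actin transcripts are near-identical over their coding stretch, so signals of the muscle actin probe sets are uncertain as measures of 1 gene, and cross-reading between actins was not tested.

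Actc1, the actin of heart muscle, had 4.25 in BER against 4.93 in control, and 4.65 in BER+DNP against 4.77 in DNP. It was the 1 member probe set past 1.5-fold in BER against control (-0.68, 1.60-fold), a call that ended with 32 or 100 added to the linear signals (-0.29 and -0.13), and it differed by -0.12 (1.09-fold) in BER+DNP against DNP. Actg2, an actin of enteric smooth muscle, had 3.35 in BER against 3.93 in control, and 3.79 in BER+DNP against 4.08 in DNP. Its difference of -0.58 in BER against control lay just outside the 1.5-fold limit at 1.497-fold, beside Actc1 inside it, and was -0.16 with 32 added. Both genes read lowest in BER and lay above the limit for dim signals by less than 2 log2 units.

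Acta2, the actin of vascular smooth muscle and a classical SRF target, did not follow. Its probe set 1416454_s_at had 5.49 in BER against 5.36 in control, and 5.34 in BER+DNP against 5.43 in DNP. The other 2 probe sets read 2.19 in BER against 1.94 in control and 2.13 in BER+DNP against 2.00 in DNP (1444105_at, dim), and 3.46 in BER against 3.40 in control and 3.48 in BER+DNP against 3.56 in DNP (1456658_at). For 1444105_at both berberine arrays lay above both others, and the other 2 overlapped. All 3 were higher in BER than in control, by 0.06 to 0.25, and 2 of the 3 were lower in BER+DNP than in DNP.

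Markers of muscle and of other cell types were set beside these values. Of 16 muscle markers on the array, 13 passed the limit for dim signals, and the summed linear signal of all 16 was 364 in BER against 355 in control and 340 in BER+DNP against 376 in DNP. Myod1, the regulator of skeletal muscle fate, had 3.83 in BER against 3.70 in control and 3.71 in BER+DNP against 3.77 in DNP. Myh6, a heart myosin, was dim at 2.03 in BER against 2.23 in control and 2.22 in BER+DNP against 2.36 in DNP. Myh7, another heart myosin, had 5.46 in BER against 5.07 in control and 5.50 in BER+DNP against 5.63 in DNP. Des, the muscle marker with the highest mean, had 5.81 in BER against 5.82 in control and 5.58 in BER+DNP against 5.86 in DNP.

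Of 12 mast cell markers on the array, 6 passed, and all 12 summed to 180 in BER against 181 in control and to 208 in BER+DNP against 207 in DNP. The 6 dim ones were Kit, the receptor for stem cell factor, Fcer1a and Ms4a2, subunits of the IgE receptor, Cpa3 and Tpsab1, granule proteases, and Mitf, a transcription factor, so several defining mast cell genes were not above the dim limit here. Hdc, which makes histamine, had 5.32 in BER against 5.46 in control and 5.86 in BER+DNP against 5.36 in DNP. Of the 6 that passed, 3 were below 0 for BER against control, with a median of 0.00. For BER+DNP against DNP, 4 of the 6 were below 0, with a median of -0.10. Gata2 stood at -0.33 and Mcpt4 at -0.32 there, while Hdc (0.50) and Tpsb2 (0.08) were above 0. For leukocyte markers 4 of 8 passed, and all 8 summed to 215 in BER against 197 in control and to 192 in BER+DNP against 205 in DNP. For fibroblast and epithelial markers 12 of 15 passed, and all 15 summed to 1504 in BER against 1478 in control and to 1590 in BER+DNP against 1624 in DNP. In this list a pair of keratin genes was bright on every array and made up most of the summed signal. Krt17 had 9.65 in BER against 9.45 in control and 9.65 in BER+DNP against 9.63 in DNP. Krt14 had 8.37 in BER against 8.63 in control and 8.64 in BER+DNP against 8.82 in DNP. No other gene of the list was bright, and Cdh1, Col1a1 and Lum were dim. Cdh1 had 1.45 in BER against 1.41 in control and 1.43 in BER+DNP against 1.71 in DNP. The part of other cells in the actin values was not tested.

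**Figure D3:**
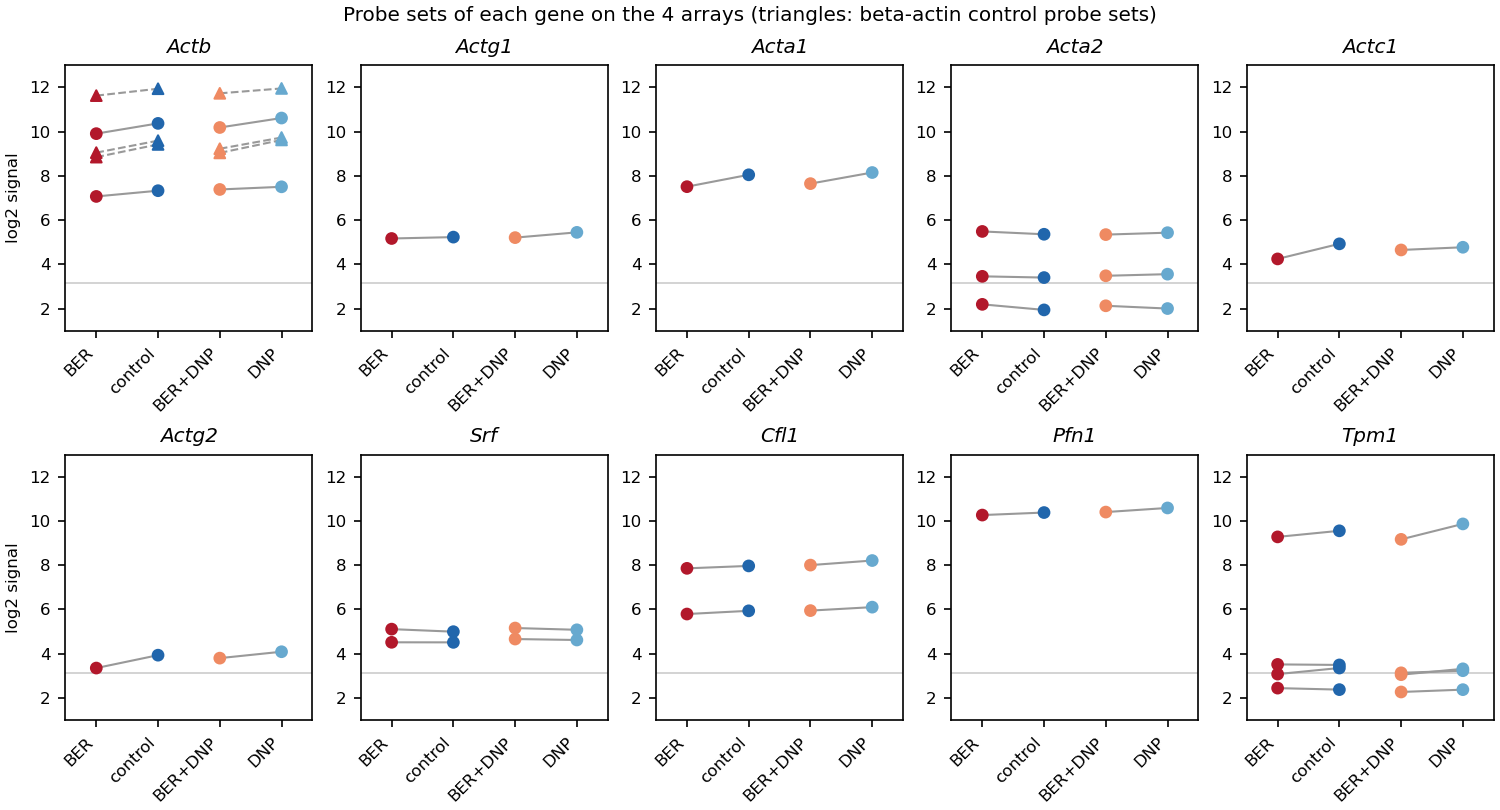
Deposited log2 signal of each of the 21 member probe sets on the BER, control, BER+DNP and DNP arrays, 1 point per array. The beta-actin control probe sets, Actb 1436722_a_at and Acta1 lie lower on both berberine arrays than on both others, while Srf 1418256_at and the dim Acta2 1444105_at lie slightly higher on both berberine arrays.

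The actin-binding genes split by probe set. Cofilin (Cfl1) severs filaments, and its probe set 1448346_at had 7.85 in BER against 7.96 in control, and 8.0 in BER+DNP against 8.21 in DNP. Profilin (Pfn1) binds monomers and delivers them to growing ends, and had 10.26 in BER against 10.38 in control, and 10.40 in BER+DNP against 10.58 in DNP. Their differences lay between -0.11 and -0.21 in both pairs, but BER+DNP lay above control in both, so arrays with and without berberine overlapped. The second Cfl1 probe set, 1455138_x_at, behaved alike, at -0.14 and -0.16.

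Tropomyosin 1 (Tpm1) winds along filaments and stabilises them. Its bright probe set 1423049_a_at had 9.28 in BER against 9.55 in control, and 9.16 in BER+DNP against 9.86 in DNP. The difference was -0.27 in the first pair and -0.70 (1.62-fold) in the second, where it was 1 of 2 member probe sets past 1.5-fold, beside the beta-actin 5' control. The arrays did not overlap. The other 3 Tpm1 probe sets were dim or barely past that limit, with differences of -0.27 to 0.07 in the first pair and of -0.26 to -0.10 in the second.

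Over all 21 member probe sets, 14 were below 0 in BER against control, with a median of -0.14, and 18 were below 0 in BER+DNP against DNP, with a median of -0.19. Of the 45037 probe sets that are not controls, 49.0% and 50.4% were below 0 in these pairs, and of the 492 bright ones 66.1% and 68.3%. Lower by 1.5-fold were 1 probe set in the first pair and 2 in the second, against 0.862% and 0.551% of the 45037. With other scalings or offsets the first count ran from 0 to 3, and the second was 1 under each. Higher by 1.5-fold were 0 member probe sets in each pair, against 0.804% and 0.451%. The 2 pairs share no array. Below 0 in both pairs were 14 of the 21, above 0 in both were 3, and past 1.5-fold in both were 0. Of the 45037, 11955 were below 0 in both and 11361 above 0 in both. By 1.5-fold in both, 40 of the 45037 were lower and 17 higher.

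Both berberine arrays lay under both arrays without berberine for 10 of the 21 member probe sets, and for 16.8% of the 45037. They lay above both others for 2 of the 21 (Srf 1418256_at and Acta2 1444105_at), and for 15.8% of the 45037. Since the selection used this contrast for beta-actin, nothing is read from these shares. Signal strength moved with the same contrast. Of the 492 bright probe sets, 42.3% had both berberine arrays under both others, 3.46% were lower by 1.5-fold in the first pair and 3.25% in the second, with a median of -0.09 in each pair. Of the 492, 273 (55.5%) were below 0 in both pairs, against 26.5% of the 45037. The 7 bright member probe sets had medians of -0.31 and -0.43, all 7 were below 0 in both pairs, and 5 did not overlap. The part of signal strength in the actin values was not tested.

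**Figure D4:**
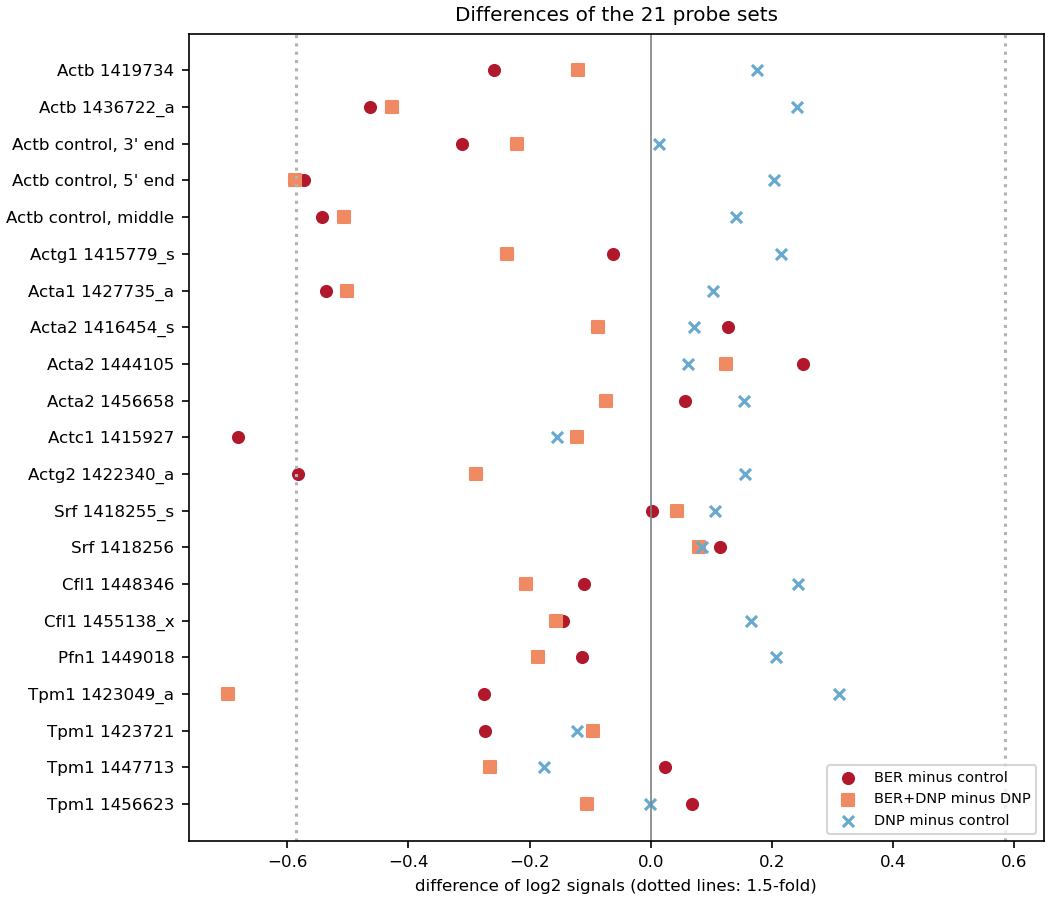
Log2 difference of each member probe set for BER against control, BER+DNP against DNP and DNP against control, 1 point per comparison, with lines at 0 and at 1.5-fold. Points of Actc1 in the first pair and of Tpm1 1423049_a_at and the beta-actin 5' control in the second lie past the lower 1.5-fold line, and 14 of 21 probe sets lie below 0 in both berberine pairs.

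Anti-DNP IgE was not part of the selection, and its comparisons reuse the same 4 arrays: DNP against control shares an array with each berberine pair, and so does BER+DNP against BER. No member probe set passed 1.5-fold in DNP against control, where 0.702% of all probe sets were lower and 0.744% higher. None did in BER+DNP against BER, where 0.44% were lower and 0.511% higher. As deposited, most member probe sets read slightly higher with IgE: 17 of 21 were above 0 in DNP against control and 16 of 21 in BER+DNP against BER, each with a median of 0.14. With arrays centred on their bright probe sets, a setting chosen after seeing the data, 11 of 21 were below 0 in DNP against control (4 as deposited), the median turned to -0.0085, and 9 of 21 were below 0 in BER+DNP against BER (5 as deposited). Over all 45037 the medians were 0.00 and -0.01, with 22035 and 21107 above 0. Among the 492 bright probe sets the medians were 0.08 and 0.06, with 369 and 319 above 0.

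For the Actb probe set 1436722_a_at the IgE differences were 0.24 in DNP against control and 0.28 in BER+DNP against BER. The beta-actin control probe sets moved by 0.01 (3'), 0.14 (middle) and 0.20 (5') in DNP against control, and by 0.10, 0.18 and 0.19 in BER+DNP against BER. Cfl1 1448346_at was higher by 0.24 and 0.15 and Pfn1 by 0.21 and 0.14. Gamma-actin was higher by 0.21 without berberine and by 0.04 with it. The highest IgE differences of the actins came from the dimmer muscle actins on the berberine background, 0.45 for Actg2 and 0.40 for Actc1 in BER+DNP against BER, beside 0.16 and -0.15 in DNP against control. Tpm1 1423049_a_at was 0.31 higher in DNP than in control and differed by -0.11 in BER+DNP against BER.

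Genes were also ranked by how like beta-actin their 4-array pattern was. Likeness was the root mean square distance, in log2, between a gene's centred signals over the 4 arrays and the mean centred profile of the 3 beta-actin control probe sets, over 12575 genes past the limit for dim signals. Each gene was read by its brightest probe set. The profile stood at -0.31 in BER, 0.17 in control, -0.15 in BER+DNP and 0.29 in DNP. The 6 nearest were Hspa8 (a constitutive chaperone of the HSP70 family) at 0.0113, Eny2 (a subunit of transcription and mRNA export complexes) at 0.0126, Cops4 (a subunit of the COP9 signalosome) at 0.0194, Mpc1 (a subunit of the mitochondrial pyruvate carrier) at 0.0211, Qsox2 (a sulfhydryl oxidase) at 0.0235 and Tubb5 (a beta-tubulin) at 0.0237. Their differences ran from -0.43 to -0.50 in the first berberine pair and from -0.37 to -0.49 in the second. The profile holds values used in the selection, so genes near it share its berberine differences by construction. The ranking is a description only.

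Of the members, Acta1 was nearest at 0.0325, with 10 genes nearer than it. Actb 1436722_a_at was at 0.0614 with 77 genes nearer, Actg2 at 0.105 with 341, Tpm1 1423049_a_at at 0.118 with 520 and Actc1 at 0.133 with 772. The probe set Actb 1419734_at, at 0.146 with 1032 genes nearer, lay further from the beta-actin controls than these. Both Cfl1 probe sets (0.154 and 0.156), Pfn1 (0.157, 1283 genes nearer) and Actg1 (0.162, 1435 genes nearer) lay close together. Acta2 1416454_s_at, at 0.262 with 6799 genes nearer, and both Srf probe sets, at 0.240 and 0.280, lay far down the order.

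The wider SRF and actin pathway was described through 8 lists, each gene by its brightest probe set, over the genes past the limit. Of all 12585 such genes, 0.985% were lower and 1.01% higher by 1.5-fold in BER against control, and 0.699% lower and 0.509% higher in BER+DNP against DNP. Medians were 0.00 and -0.02, and 29.7% of these genes were below 0 in both pairs and 25.4% above 0 in both. Over the lists together, 3 genes were higher by 1.5-fold in BER against control, and 0 were with the median of a gene's probe sets in place of the brightest. Lower in BER+DNP against DNP were 4 genes, and 1 with that median.

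Coactivators and partners of SRF had 9 genes past the limit, of which 0 passed 1.5-fold in either pair. The medians were 0.16 and 0.00, and 1 was below 0 in both pairs against 4 above 0 in both. Mrtfb, an actin-sensing coactivator, differed by 0.19 in the first pair and 0.20 in the second. Its other probe sets stood at 0.11 and -0.10 and at 0.06 and 0.11. Elk1, a partner that links SRF to growth factor signals, differed by 0.58 and -0.18.

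Of 35 SRF and MRTF target genes, 1 was lower by 1.5-fold in the first pair and 2 in the second, and 0 were higher. The medians were -0.01 and -0.09, with 15 below 0 in both pairs and 6 above. Filip1l, a filamin-interacting protein, was lower by 1.5-fold in both pairs (-0.79 and -0.72). Vinculin (Vcl), which ties actin to adhesion sites, differed by -0.53 and -0.79, and a second, dim Vcl probe set by 0.16 and -0.10. Actn1, an actin crosslinker, differed by -0.42 and -0.56. Tgfb1i1, an adhesion adaptor, was above 0 in both pairs, at 0.26 and 0.21, and so was the brightest Tpm2 probe set, at 0.13 and 0.27. Other Tpm2 probe sets past the limit were below 0 in the first pair, at -0.21 and 0.07 and at -0.36 and 0.13. A dim Tpm2 probe set stood at 0.28 and 0.31. Myl9, a myosin light chain, stood at 0.46 and -0.03.

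In the target list, 35 genes had a promoter window, dim genes included, and 8 of these held a CArG box (22.9%), against 1.62% of 27025 genes in the table. Filip1l and Vcl were among these 8, and so were Cnn2, a calponin, at 0.08 and 0.08, Lima1, an actin crosslinker, at -0.12 and -0.11, and Myl9. The other 3 were dim: Vil1 at -0.18 and -0.13, Fhl1 at 0.08 and 0.16, and Egr2 at -0.05 and 0.09. The box was thus found in targets on both sides of 0.

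Among the genes that build and turn over filaments, the Arp2/3 complex, which nucleates branches, had 5 genes past the limit and 1 lower by 1.5-fold, Actr3 in BER+DNP against DNP (-0.65, beside -0.14 in BER against control). Its medians were -0.18 and -0.42, with 3 below 0 in both pairs and 0 above, and Arpc1a stood at -0.37 and -0.42. The other Actr3 probe sets, both dim, stood at -0.09 and -0.08 and at 0.05 and -0.09. Of 26 genes for monomer binding and turnover, 1 was higher by 1.5-fold in BER against control (Coro1c, a coronin, 0.72) and 1 lower in BER+DNP against DNP (Cap1, which recycles monomers from cofilin, -0.73), with medians of 0.00 and -0.08. Of the other 3 Coro1c probe sets, 1 went the same way, at 0.40 and 0.29, and 2 dim ones the other way, at -0.22 and -0.26 and at -0.11 and -0.32. A second Cap1 probe set went the other way, at 0.45 and 0.23. Gelsolin (Gsn), which severs filaments, differed by -0.54 and -0.36. The other Gsn probe sets were dim, with differences of -0.07 to 0.10 in the first pair and of -0.20 to 0.15 in the second.

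Of 18 tropomyosin and crosslinking genes, 1 was higher by 1.5-fold in BER against control (Tmod2, which caps pointed ends, 0.69), with medians of 0.07 and -0.01. That Tmod2 probe set did not differ in the second pair (-0.00), and a pair of dim Tmod2 probe sets went the other way in the first, at -0.27 and -0.49. Ezrin (Ezr), which joins actin to the membrane, differed by 0.35 and 0.43, and a dim Ezr probe set by -0.21 and 0.00.

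Of 12 genes that fold or modify actin, 0 passed 1.5-fold, the medians were -0.08 and -0.15, and 7 were below 0 in both pairs against 1 above. Tcp1, a subunit of the chaperonin that folds new actin, differed by -0.32 and -0.14, and Setd3, which methylates actin, by 0.06 and -0.06. Outside actin, of 11 tubulin and intermediate filament genes 1 was lower by 1.5-fold in BER against control (Tuba4a, -0.67), with medians of -0.07 and -0.23. Its other probe sets differed by 0.17 and -0.04 in that pair. Tubb5 differed by -0.47 and -0.37, and its second probe set, also past the limit, by 0.01 and 0.17. Of 10 housekeeping genes, 1 was higher in BER against control (Polr2a, the large subunit of RNA polymerase II, 0.68, beside -0.20 for its other probe set), with medians of -0.04 and -0.07, and B2m, a subunit of MHC class I, differed by -0.14 and -0.17.

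**Figure D5:**
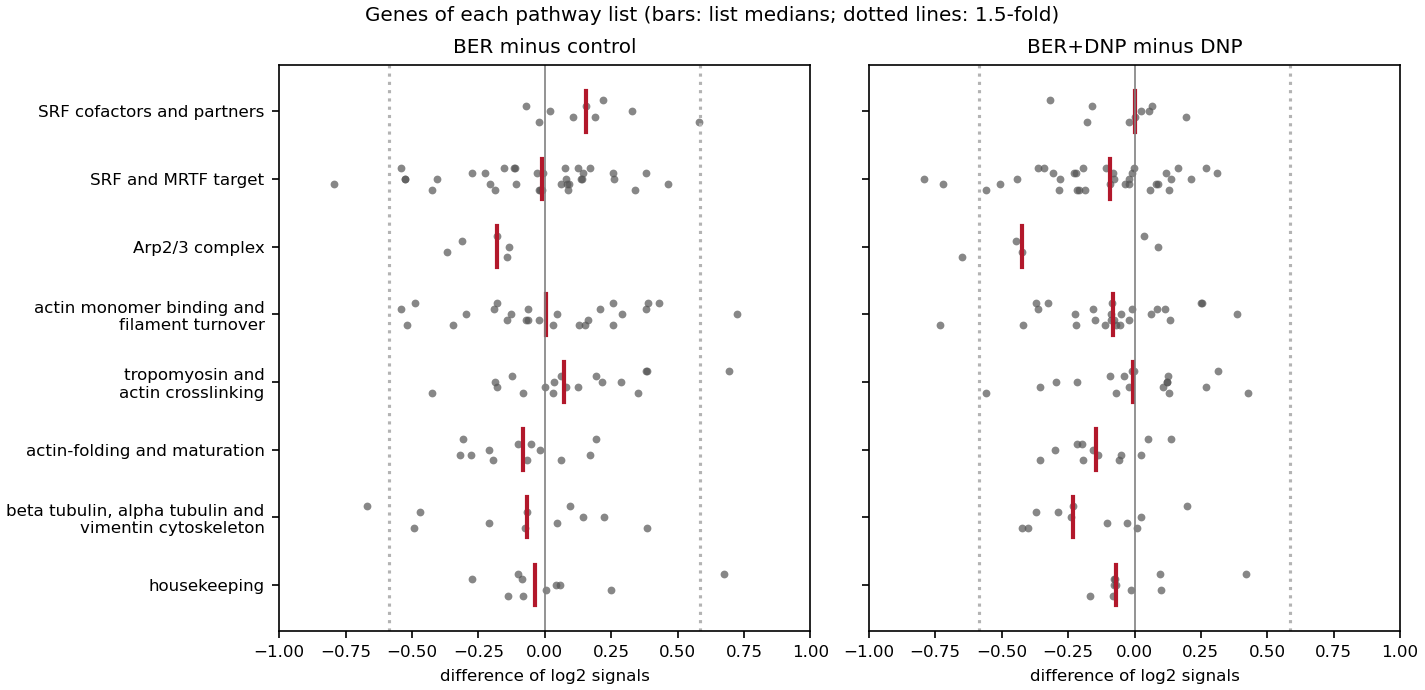
Log2 differences of the genes of each pathway list past the limit for dim signals, for BER against control and BER+DNP against DNP, 1 point per gene with the list median as a bar. Medians lie between -0.18 and 0.16 in the first pair and between -0.42 and 0.00 in the second, and the Arp2/3 list has the lowest median in both.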

How the data were processed

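Total RNA of 4 MC/9 cultures was measured, 1 array each, in 500 ng labelled with a 3' IVT kit. For 45101 probe sets the deposited values are log2 signals, which the authors made with Affymetrix Expression Console, per the submitters' processing notes. Which version and summary algorithm it ran is not given in the sources used here, nor are detection calls or a background step. The log2 scale was read from the range of the values. Any floor that the algorithm set would shrink differences of dim probe sets. Depth does not apply to arrays.

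Differences of log2 signals were taken between arrays in Python 3.11.15 with numpy 2.4.6 and pandas 2.3.3, with no test, since each group holds 1 array. The 64 control probe sets were set apart except for those of beta-actin and the other control transcripts described. The platform annotation, dated 2016, left 9160 probe sets without a symbol and gave 932 more than 1 and 34945 exactly 1, with all members among the last. One planned list is not reported here. The members and lists were chosen with earlier results of these data known. The text names all members, up to 3 genes with the lowest and up to 3 with the highest mean difference over the berberine pairs of each pathway list, the 6 genes nearest to beta-actin in pattern, and Gapdh controls. Cell type markers named singly fall outside this rule. Genes with a CArG box among the SRF targets, and second probe sets of named genes, were named after their values were seen. Counting and likeness steps were tested on simulated data. Alternatives were quantile normalization, centring of each array, added offsets, other filters and other probe set choices. Promoter windows are RefSeq, GRCm38.p6; array values carry no coordinates.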

Additional observations from a re-analysis of the deposited data

Results flagged for a closer look

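For 8 member probe sets the sign of a difference turned between the pairs of arrays that carry the same contrast. Each value below is the difference of differences on the log2 scale, and none was tested, since each group is 1 array. For the effect of berberine, 4 probe sets turned. Acta2 1416454_s_at differed by -0.09 in BER+DNP against DNP and by 0.13 in BER against control, which is -0.21. Acta2 1456658_at differed by -0.07 and 0.06 in the same order, which is -0.13. Tpm1 1447713_at differed by -0.26 and 0.02, which is -0.29, and Tpm1 1456623_at, which is dim, by -0.11 and 0.07, which is -0.17.

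For the effect of anti-DNP IgE, 5 probe sets turned. Actc1 had the widest turn, 0.56, with 0.40 in BER+DNP against BER and -0.15 in DNP against control. Tpm1 1423049_a_at turned by -0.42, with -0.11 in BER+DNP against BER and 0.31 in DNP against control. Tpm1 1423721_at turned by 0.18 (0.06 and -0.12 in the same order), Acta2 1416454_s_at by -0.21 (-0.14 and 0.07) and Acta2 1444105_at, which is dim, by -0.13 (-0.06 and 0.06).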

How the results depend on the processing

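No paired analysis was possible because each group holds 1 array and the labels give no replicate numbers. Of 234 values recomputed under alternatives, 192 moved by less than 0.1 in log2 (counts by less than 1.5 times), 40 moved further and 2 turned sign. The number of member probe sets lower by 1.5-fold in BER against control, 1 as reported, was 2 after quantile normalization, 3 after centring each array on its median, and 0 with 32 or 100 added to the linear signals. In BER+DNP against DNP the count, 2 as reported, was 1 under each of these 4 settings, 1 without the beta-actin control probe sets, and 1 with arrays centred on the bright probe sets, a setting chosen after seeing the data. Centring on bright probe sets turned the median of the members in DNP against control to -0.0085, against 0.14 as reported. Quantile normalization turned Pfn1 in BER against control to 0.016, against -0.11 as reported, and narrowed the shift of the beta-actin 5' to 3' gap in BER+DNP against DNP to -0.15, against -0.37. The median of the 3 beta-actin control probe sets lay between -0.47 and -0.56 in BER against control (-0.54 as reported) and, in BER+DNP against DNP, between -0.42 and -0.50 (-0.51 as reported). Signals of Actc1 and Actg2 were low, and their differences in BER against control shrank to -0.29 and -0.16 with 32 added and to -0.13 and -0.06 with 100 added. Genes of the pathway lists lower in BER against control, 2 as reported, were 1 with 32 added and 1 after quantile normalization. Those higher, 3 as reported, were 0 with the median of a gene's probe sets, 1 with a filter at the 75th percentile and 0 with 32 added. Those lower in BER+DNP against DNP, 4 as reported, were 1 with the median of a gene's probe sets, 2 with that filter and 0 with 32 added. The causes were not tested. With 1 array a group, no setting gives a replicate error.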

Other observations

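All genes with a CArG box in the promoter window were also followed through the berberine pairs. Past the limit for dim signals, 145 genes had a box, with medians of 0.01 in the first pair (BER against control) and -0.02 in the second (BER+DNP against DNP). Below 0 in both pairs were 35 of them (24.1%) and above 0 in both were 39 (26.9%), beside 29.9% and 25.5% of 10057 genes with a window. The 145 include the members Acta1, Actc1, Actg1 and Srf. With members left out, 141 genes had medians of 0.01 and -0.01, with 22.7% below 0 in both pairs and 27.0% above. Of these 141, 4 were lower by 1.5-fold in BER against control. Of the 145, 5 were lower by 1.5-fold in BER against control (Filip1l, Actc1, Tbc1d9, Ints6l and Psma6) and 1 was higher, 4933438B17Rik. In BER+DNP against DNP, Filip1l and Vcl were lower and Cabp5 was higher. Of the 10057 genes with a window, 102 were lower and 100 higher in the first pair, and 70 lower and 55 higher in the second. These genes were named after their values were seen. Psma6, a subunit of the proteasome core, had 6.96 in BER against 7.57 in control and 7.33 in BER+DNP against 7.60 in DNP, and Tbc1d9 had 3.94 in BER against 4.57 in control and 3.99 in BER+DNP against 4.03 in DNP.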
